A study of Mus musculus with 9 samples.

Results

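The comparison described here asks what differs in mouse cortical neurons when a conductive polymer is added to a peptide scaffold. It sets the 3 libraries titled PA + PS2 against the 3 titled PA, chosen by title, so 6 of the 9 libraries of the series enter it and the 3 control libraries are shown beside them. All 9 are RNA sequencing libraries of cells labelled cortical neuron and wild type, from CD1, a stock of outbred mice. PA stands for peptide amphiphile, and the PA libraries carry the name IKVAV. The PA + PS2 libraries carry the name IKVAV plus PEDOT-S-OH, so both groups share the peptide and differ in the polymer. The control libraries carry the name PDL. The labels spell out neither PS2 nor PDL, give no time, age or amount, and give the treatment as peptide amphiphile for the controls too, which goes against their titles. The titles number the repeats 1 to 3 in each group but do not say that they came from separate cultures. The p-values below therefore reflect only how these samples scatter, and that scatter may be technical.

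IKVAV is a short sequence from a laminin chain that neurons and neural progenitors can bind. Peptide amphiphiles are peptides joined to a fatty tail. In water they assemble into fibres that can display such a sequence to cells, and they are used as an artificial matrix. PEDOT is a polymer that conducts electricity, and water-soluble forms of it can be mixed into soft materials. Cortical cultures usually hold some dividing progenitors, glia and cells of the vessel wall or meninges besides neurons, and such cells make much of the laminin, collagen and contractile protein of a culture.

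Total counts ran from 20746851 to 27237398 per library, and 15712 of 54232 genes had enough counts to be tested. The number of genes with any count was 22064 to 22835 in PA + PS2 and 22173 to 24702 in PA, and mitochondrially encoded genes took 0.786% to 0.868% and 0.342% to 1.39% of the counts. Exact 2-sided permutation tests over libraries gave p = 1 for total counts, p = 0.3 for genes detected and p = 0.7 for the mitochondrial share, where 3 against 3 cannot go below 0.1. Levels below are in CPM, a gene's counts relative to the total of its library, where totals were scaled by edgeR's TMM method.

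The label of the cells was checked against marker genes. Tubb3, a neuronal tubulin, stood at 1781 to 3069 CPM over the PA and PA + PS2 libraries, Map2, a dendritic microtubule protein, at 1767 to 2403 CPM, and Gad1, which makes GABA, at 190 to 222 CPM. The 12 pan-neuronal genes summed to 8450 to 10700 CPM in PA and 9330 to 10500 CPM in PA + PS2. RNA of other cells was also present. Astrocyte genes summed to 633 to 679 CPM in PA and 549 to 620 CPM in PA + PS2, genes of neural progenitors to 586 to 651 and 392 to 455 CPM, and endothelial genes to 6.8 to 10.1 and 4.57 to 6.64 CPM. Some defining markers of other cells were absent: Gjb6 of astrocytes and Ly6c1 of endothelium had no count in the 6 libraries. A count of 0 allows up to 3 counts, or 0.113 to 0.145 CPM in these libraries, for counting error only. Opalin of myelinating cells and P2ry12 of microglia had at most 2 and 4 counts in any of the 6. In bulk RNA, fewer cells of a type and less RNA per cell cannot be told apart.

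Over all genes tested, log2 fold changes were about evenly split, with 8078 genes (51.4%) above 0 and 7634 (48.6%) below, while genes with a small p were mostly lower in PA + PS2. No gene passed the edgeR quasi-likelihood test at an adjusted p under 0.05 (Benjamini-Hochberg), which is 0% of 15712. The smallest adjusted p was 0.1, for Gpnmb. At an unadjusted p under 0.05, 162 genes (1.03%) were higher in PA + PS2 and 719 genes (4.58%) were lower. DESeq2 on the same 9 libraries called 121 of 17513 genes, 6 higher (0.0343%) and 115 lower (0.657%). Of those, 118 were tested by edgeR, and all 118 had an unadjusted edgeR p under 0.05. Because no gene passed the main test, values below are given as levels and differences. A gene is described as higher or lower in all 3 libraries where no PA + PS2 library overlapped a PA library.

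Groups that did not overlap were also more frequent on the lower side. All 3 PA + PS2 libraries lay below all 3 PA libraries for 993 genes (6.32%) and above them for 522 genes (3.32%). They lay below all 6 other libraries, controls included, for 455 genes (2.9%) and above all 6 for 191 genes (1.22%). The excess of lower over higher was smaller with 1 PA library left out, when fewer libraries must be separated: 2339 against 2039 genes without PA repeat 1, 1404 against 1372 without repeat 2 and 1953 against 1896 without repeat 3. At an unadjusted p under 0.05 the same settings gave 945 against 288, 431 against 277 and 868 against 543 genes. The 4 shares above are the background for the counts of list members below. The median log2 fold change of PA + PS2 over PA was 0.0055 over all genes, with quartiles of −0.14 and 0.11. A log2 fold change under −1 was found for 495 genes, of which 315 had groups that did not overlap, against 66 and 34 genes over 1.

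**Figure D1:**
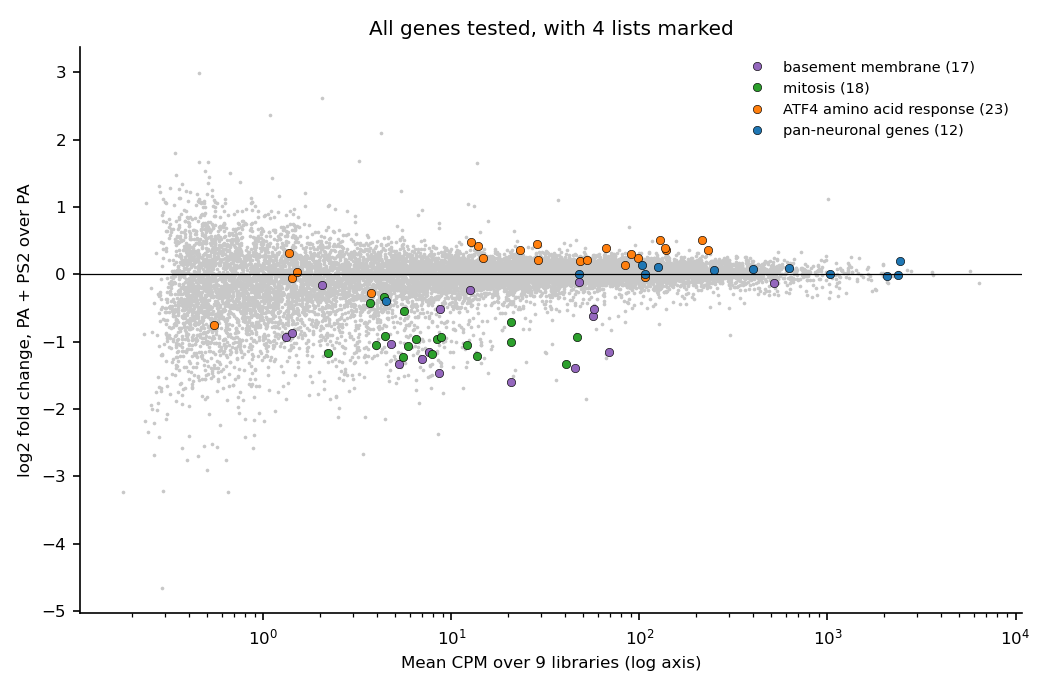
Each grey point is 1 of the 15712 genes tested, with its mean level over the 9 libraries in CPM on a log axis and the log2 fold change of PA + PS2 over PA, and coloured points are members of 4 lists. The 17 basement membrane and 18 mitosis genes all lie below 0, and 19 of 23 genes of the ATF4 amino acid response lie above 0. The 12 pan-neuronal genes lie between −0.40 and 0.20.

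The 8 protein-coding genes with the smallest p on the higher side included 3 known from macrophages, Gpnmb, Lyz2 and Acod1, and 5 that make or carry amino acids, Asns, Slc7a5, Slc7a1, Slc6a9 and Slc1a4. Gpnmb (ENSMUSG00000029816, chr6:49036546-49070929), a membrane glycoprotein of cells rich in lysosomes, stood at 1.84, 1.8 and 1.62 CPM in PA repeats 1, 2 and 3 and at 7.07, 5.24 and 10.2 CPM in PA + PS2. The groups did not overlap, and the controls lay between them at 3.53, 2.78 and 4 CPM. The log2 fold change was 2.09 ± 0.27 (SE, n = 3 a group; edgeR quasi-likelihood, Benjamini-Hochberg adjusted p = 0.1; DESeq2 adjusted p = 3.62e-08). Lyz2 (ENSMUSG00000069516, chr10:117277331-117282321), a lysozyme of macrophages, stood at 0.9, 0.461 and 0.827 CPM in PA and 3.7, 4.63 and 5.2 CPM in PA + PS2, all above the controls at 0.522 to 1.52 CPM. Its log2 fold change was 2.62 ± 0.39 (edgeR adjusted p = 0.223; DESeq2 adjusted p = 2.76e-06). Acod1, which makes itaconate in activated macrophages, stood at 0.63, 0.586 and 0.977 CPM in PA and 1.97, 1.47 and 2.54 CPM in PA + PS2, again without overlap. Coordinates are in mm10.

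Genes on the list of microglia and macrophages lay on both sides of 0. Of 14 on the list, 11 were tested, 6 above 0 and 5 below, with a median log2 fold change of 0.027, which kept its sign in 9 of 17 alternative settings. Lyz2 was the 1 member higher in all 3 libraries. C1qb, a chain of the first complement component made by microglia, stood at 0.99, 0.796 and 1.17 CPM in PA and 0.433, 0.347 and 0.249 CPM in PA + PS2, and C1qc at 0.544 to 1.01 and 0.386 to 0.433 CPM, both without overlap on the lower side. The summed level of the list was 15 to 17.2 CPM in PA, 17 to 20 CPM in PA + PS2 and 18 to 19.5 CPM in control, so the groups overlapped. P2ry12, Tmem119 and Itgam, which define microglia, had at most 4, 7 and 3 counts in any of the 6 libraries.

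Genes that respond to a shortage of amino acids or other stress through the transcription factor ATF4 lay on the higher side. ATF4 is translated when the integrated stress response slows other protein synthesis, and it turns on genes for making and importing amino acids. Of 23 members, all tested, 19 had a log2 fold change above 0, the median was 0.30, and 12 (52.2%) were higher in all 3 libraries, beside 3.32% over all genes. At an unadjusted p under 0.05, 10 were higher, beside 1.03% over all genes, and none lower, beside 4.58%. Another count, of members above all 6 other libraries, was 9, beside 1.22% over all genes. Nupr1, a small stress-induced chromatin protein, was lower in all 3. The summed level of the list was 1340 to 1520 CPM in PA, 1740 to 1800 CPM in PA + PS2 and 1310 to 1470 CPM in control. Against control, the median log2 fold change was 0.0082 for PA and 0.29 for PA + PS2, which share the control libraries.

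Sequence near the start site is shown for 3 of these genes because the list is defined by a factor with a known motif. The motif TGATGNAA was searched on both strands of the 250 bases before the start. It was found for 5 of the 21 members that have a promoter in RefSeq GRCm38.p6 (23.8%), and for 3.91% of 27025 genes. Windows with 12 bases on each side of the match follow, 5′ to 3′ on the strand of the gene, with the match in capitals. They lie at chr6:7693213-7693244 and chr11:120643832-120643863 on the minus strand and at chr2:119351037-119351068 on the plus strand.
Asns: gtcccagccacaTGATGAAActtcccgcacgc
Pycr1: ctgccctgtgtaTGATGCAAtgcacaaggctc
Chac1: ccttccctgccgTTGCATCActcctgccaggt
The match in Chac1 reads on the opposite strand. Atf3 and Nupr1 also held the motif. Of the 5 genes, Asns and Pycr1 were higher in all 3 libraries, Nupr1 was lower in all 3, and Chac1 and Atf3 overlapped. A match describes the letters and shows no binding.

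Asns (ENSMUSG00000029752, chr6:7675169-7693254), which makes asparagine, stood at 107, 117 and 110 CPM in PA and 152, 148 and 173 CPM in PA + PS2. All PA + PS2 libraries were above all others, with the controls at 105 to 130 CPM. The log2 fold change was 0.50 ± 0.10 (edgeR adjusted p = 0.237; DESeq2 adjusted p = 0.00706). Slc7a5 (ENSMUSG00000040010, chr8:121881150-121907694), the light chain of a transporter for large neutral amino acids, stood at 220, 171 and 180 CPM in PA and 264, 267 and 283 CPM in PA + PS2, without overlap. Its log2 fold change was 0.51 ± 0.11 (edgeR adjusted p = 0.237; DESeq2 adjusted p = 0.0132). Slc3a2, the heavy chain that partners it, stood at 134, 128 and 116 CPM in PA and 165, 159 and 162 CPM in PA + PS2, also without overlap.

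Among the factors and the other enzymes and carriers of the pathway, part were higher and part overlapped. Atf4 mRNA stood at 222, 234 and 189 CPM in PA and 283, 274 and 272 CPM in PA + PS2, with a log2 fold change of 0.36 ± 0.10 and no overlap. Atf5, a related factor, stood at 67.7, 57.2 and 57.2 CPM against 81.8, 82.1 and 74.5 CPM. Slc7a1, a carrier of arginine and lysine, stood at 133, 117 and 123 CPM against 167, 159 and 164 CPM, and its log2 fold change was 0.39 ± 0.10. Sesn2, which lowers mTORC1 signalling when leucine is short, differed by 0.45 ± 0.13 in log2 without overlap. Of the enzymes, Psph of serine synthesis, Pycr1 and Aldh18a1 of proline synthesis and the mitochondrial folate enzymes Mthfd2 and Aldh1l2 were higher in all 3 libraries, at log2 fold changes of 0.22 to 0.42. Chac1, which degrades glutathione, stood at 0.48 ± 0.19 with overlapping groups. Psat1 and Phgdh, also of serine synthesis, overlapped at log2 fold changes of 0.13 and −0.28. The stress factors Ddit3 and Trib3 overlapped as well, at log2 fold changes of 0.25 ± 0.19 and −0.06 ± 0.49.

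**Figure D2:**
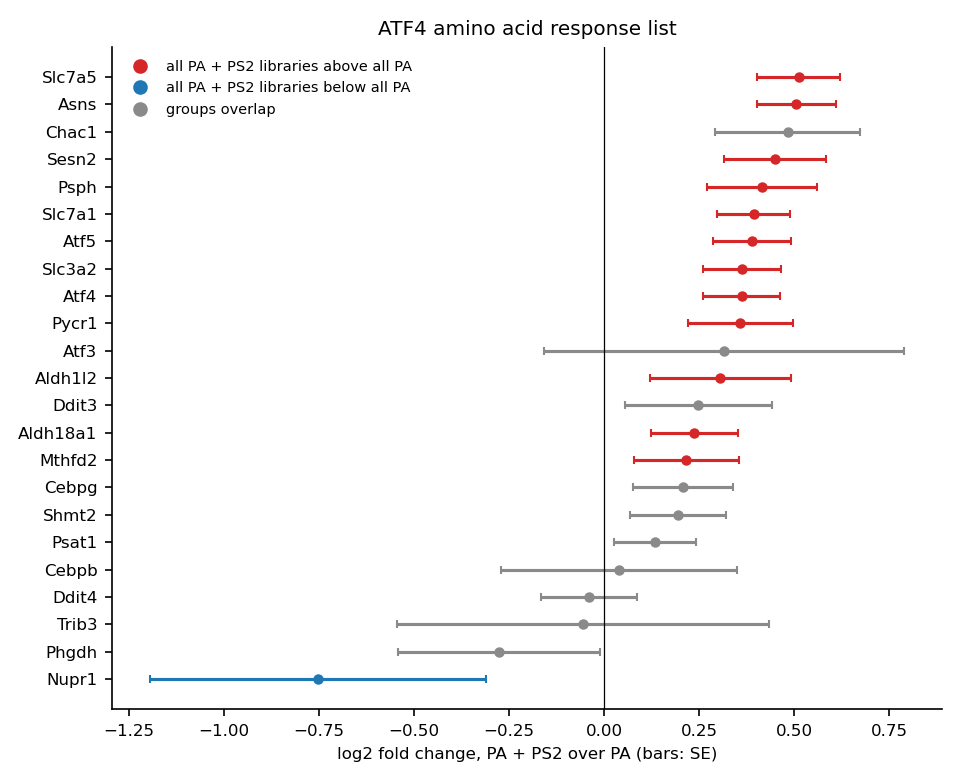
Log2 fold change of PA + PS2 over PA for the 23 genes of the ATF4 list, with bars for the SE from the edgeR fit and colours for whether the 3 libraries of each group overlap. The 12 genes with every PA + PS2 library above every PA library include Slc7a5 and Asns, and Nupr1 is the 1 gene with every library below.

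Slc6a9 and Slc1a4, which carry glycine and neutral amino acids such as serine and alanine, are outside that list. Slc6a9 (ENSMUSG00000028542, chr4:117834506-117875198) stood at 11.4, 12.9 and 11.4 CPM in PA and 19.6, 18.5 and 16.9 CPM in PA + PS2, with a log2 fold change of 0.62 ± 0.15 (edgeR adjusted p = 0.302; DESeq2 adjusted p = 0.0405). Slc1a4 stood at 178, 160 and 164 CPM against 207, 208 and 227 CPM. In both genes the PA + PS2 libraries were above all 6 others. Other stress lists had medians nearer to that of all genes. Endoplasmic reticulum chaperones had a median of −0.0047 with 1 of 14 higher and 2 lower in all 3 libraries, and heat shock proteins −0.015 with 1 of 11 higher and 2 lower. NRF2 targets had a median of 0.10 with 2 of 12 higher. These were Hmox1, which degrades haem, at 3.16 to 5.61 CPM in PA and 5.94 to 8.27 CPM in PA + PS2, and Slc7a11, the cystine importer, at 1.35 to 2.71 and 3.62 to 4.16 CPM. For Slc7a11 all 3 PA + PS2 libraries lay inside the control range of 2.22 to 4.33 CPM. The 9 tested p53 targets were all above 0 with a median of 0.16, and Sesn1 and Ccng1 were higher in all 3.

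**Figure D3:**
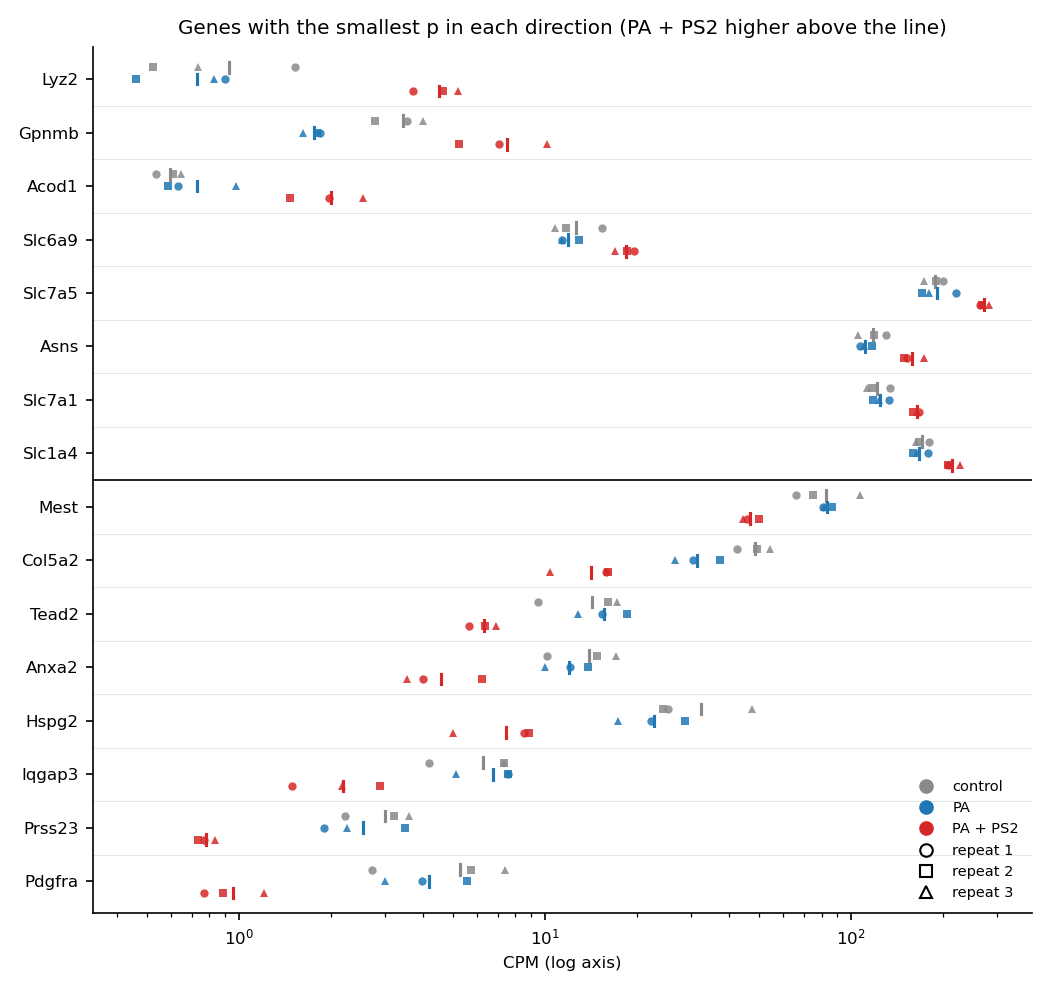
Level in CPM on a log axis of the 8 protein-coding genes with the smallest p in each direction, with 1 point per library, marker shape for the repeat, colour for the group and a short line at the group mean. In each gene the 3 PA + PS2 points lie on 1 side of the 3 PA points and of the 3 control points.

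The 8 protein-coding genes with the smallest p on the lower side were Col5a2, Tead2, Anxa2, Mest, Pdgfra, Iqgap3, Hspg2 and Prss23, and all 8 were below each of the 6 other libraries. Col5a2 (ENSMUSG00000026042, chr1:45374321-45503282), a chain of fibril-forming collagen V, stood at 30.4, 37.3 and 26.6 CPM in PA and 15.9, 16.1 and 10.4 CPM in PA + PS2, and at 42.3 to 54.2 CPM in control. No PA + PS2 library reached a PA library, and the log2 fold change was −1.16 ± 0.18 (edgeR adjusted p = 0.236; DESeq2 adjusted p = 6.17e-06). Tead2 (ENSMUSG00000030796, chr7:45215753-45233644), a DNA-binding partner of YAP, stood at 15.4, 18.5 and 12.8 CPM against 5.63, 6.36 and 6.9 CPM, a log2 fold change of −1.30 ± 0.23. Anxa2, a membrane-binding annexin, stood at 12.1, 13.9 and 10 CPM against 3.99, 6.21 and 3.53 CPM. Mest, an imprinted gene of embryonic mesoderm, stood at 81, 86.7 and 81.6 CPM against 45.7, 50 and 44.2 CPM. Iqgap3, a scaffold of dividing cells, differed by −1.62 ± 0.30 and Prss23, a serine protease, by −1.70 ± 0.32 in log2. Each of these pairs of groups was free of overlap.

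Basement membrane genes lay on the lower side. A basement membrane is a sheet of laminin and collagen IV linked by nidogen and perlecan, and laminin is the protein from which IKVAV is taken. All 17 members had a log2 fold change below 0, with a median of −0.93, and 12 (70.6%) were lower in all 3 libraries, beside 6.32% over all genes. As many, 12, were below all 6 other libraries, beside 2.9% over all genes. At an unadjusted p under 0.05, 13 were lower, beside 4.58% over all genes. The summed level was 1000, 946 and 837 CPM in PA repeats 1, 2 and 3 and 795, 765 and 611 CPM in PA + PS2. Against control, the median log2 fold change was −0.16 for PA and −1.30 for PA + PS2.

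Within that sheet, Hspg2 (ENSMUSG00000028763, chr4:137468769-137570630), the core protein of perlecan, stood at 22.2, 28.6 and 17.3 CPM in PA and 8.51, 8.87 and 4.99 CPM in PA + PS2, with a log2 fold change of −1.61 ± 0.30 (edgeR adjusted p = 0.237; DESeq2 adjusted p = 3.44e-05). Sparc, a collagen-binding matrix protein, stood at 42, 65.5 and 36.3 CPM against 22.1, 20.8 and 11.6 CPM. Nid1, the linker nidogen, stood at 5.67, 9.72 and 6.46 CPM against 3.13, 4.01 and 1.95 CPM. Col4a1, a chain of the widespread collagen IV network, stood at 74.3, 99.6 and 60.3 CPM against 38.1, 49.6 and 17 CPM, and Col4a2, Col4a5, Col4a6 and Col18a1 were lower in all 3 libraries too. In Hspg2, Sparc, Nid1 and Col4a1, PA + PS2 repeat 3 was the lowest library. Agrn and Nid2, agrin and the other nidogen, overlapped between groups at −0.13 and −0.16 in log2.

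Among the laminin chains, part differed and part overlapped. Lamb2 (ENSMUSG00000052911, chr9:108479736-108490530), a beta chain of vessel and synaptic basement membranes, stood at 8.32, 11.5 and 7.52 CPM in PA and 3.85, 4.82 and 3.58 CPM in PA + PS2, a log2 fold change of −1.15 ± 0.23. Lama5 (ENSMUSG00000015647, chr2:180176373-180225859), an alpha chain, stood at 6.52, 7.04 and 5.6 CPM against 2.31, 3.16 and 2.12 CPM, a log2 fold change of −1.33 ± 0.28. Lamc1, the common gamma chain, stood at 64.2, 63 and 54.9 CPM against 39.5, 47.4 and 41.1 CPM. These 3 chains were lower without overlap, as was Lama4 at 1.44 to 2.01 against 0.707 to 1.25 CPM. Lama1, the alpha chain that holds IKVAV, overlapped at 9.36, 10.3 and 8.15 CPM against 8.18, 5.71 and 5.53 CPM. Lamb1 also overlapped, at 46.5 to 53 against 44.5 to 47.1 CPM, and so did Lama2, Lama3 and Lamb3. Lamc3 had too few counts to be tested.

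**Figure D4:**
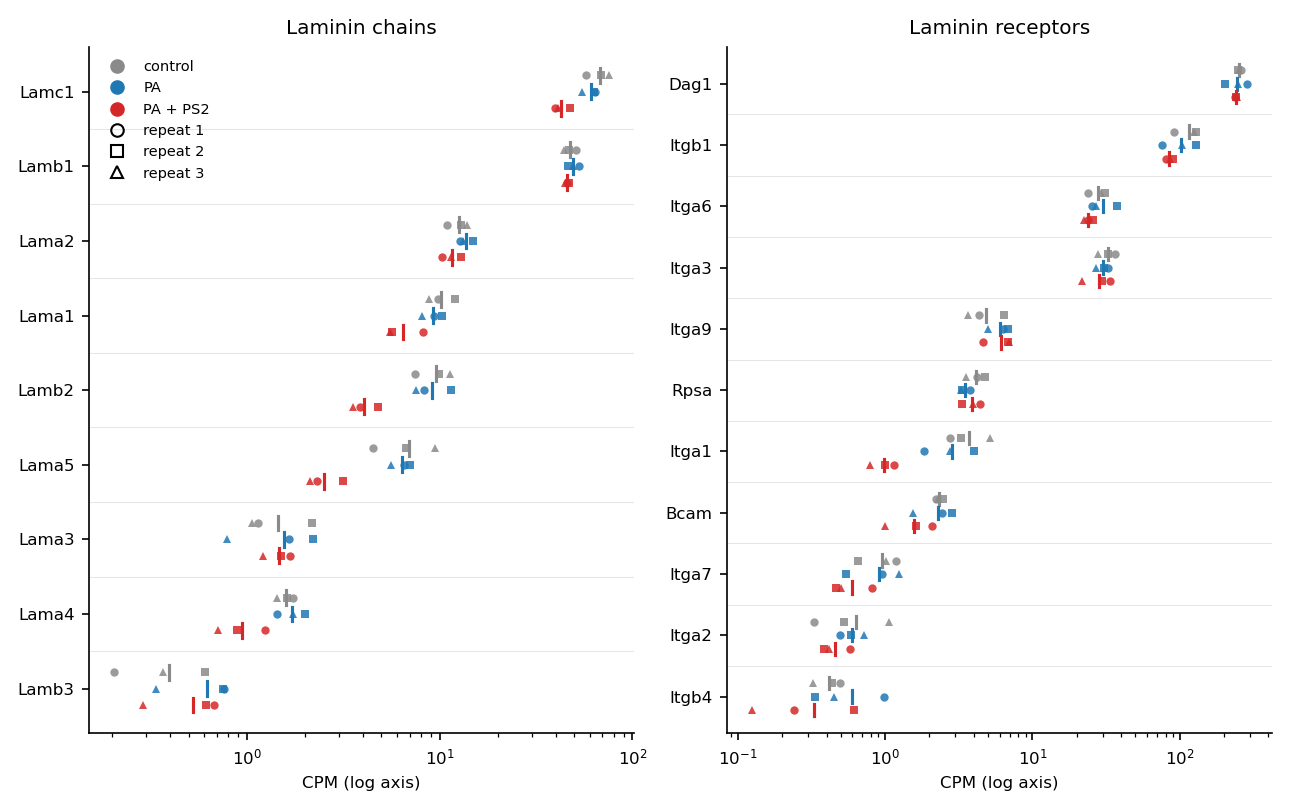
Level in CPM on a log axis of 9 laminin chains (left) and of the 11 laminin receptors (right), with 1 point per library, colour for the group and a short line at the group mean. Lamc1, Lamb2, Lama5 and Lama4 on the left and Itga1 on the right have every PA + PS2 point below every PA point.

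The receptors for laminin mostly overlapped between groups. Of 11 receptors, all tested, 9 had a log2 fold change below 0, the median was −0.32, and 1 (9.09%) was lower in all 3 libraries. The median was −0.14 without PA repeat 2. That gene was Itga1 (ENSMUSG00000042284, chr13:114953096-115101964), an integrin chain that binds collagen IV and laminin, at 1.84, 3.98 and 2.74 CPM in PA and 1.15, 1 and 0.79 CPM in PA + PS2, a log2 fold change of −1.54 ± 0.35 (edgeR adjusted p = 0.255). Itgb1, the beta chain that pairs with many alpha chains, overlapped at 76, 128 and 104 CPM against 80, 89.6 and 85.3 CPM. Dag1, dystroglycan, stood at 203 to 287 CPM against 236 to 244 CPM, and its log2 fold change was −0.03 ± 0.12. Itga6 and Itga3, alpha chains of laminin receptors of the nervous system, differed by −0.32 ± 0.16 and −0.09 ± 0.16. Itga9 and Rpsa stood at log2 fold changes of 0.02 ± 0.25 and 0.16 ± 0.21, and Itga2, Bcam, Itga7 and Itgb4 at −0.39 to −0.81. Among 8 integrin chains that bind fibronectin or vitronectin, all below 0 with a median of −0.69 (−0.45 without PA repeat 2), Itgb5, Itgav and Itgb3 were lower in all 3 libraries. Itgb5 stood at 8.59, 12.3 and 7.33 CPM in PA and 2.79, 4.32 and 3.91 CPM in PA + PS2.

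Interstitial matrix genes, the fibrillar collagens and their partners, had a median of −0.67, with 22 of 23 tested members below 0 and 10 (43.5%) lower in all 3 libraries. Without PA repeat 2 the median was −0.37. Thbs1, thrombospondin, stood at 95, 79.2 and 84.3 CPM in PA and 53.1, 58.4 and 46.8 CPM in PA + PS2, a log2 fold change of −0.71 ± 0.14. Tnc, tenascin C of progenitors and astrocytes, stood at 90.8, 110 and 88.4 CPM against 31.5, 44.3 and 46.2 CPM, and its controls at 27.2, 81.2 and 78.7 CPM. So Tnc in PA + PS2 was below PA without overlap but above control repeat 1. Fn1, fibronectin, stood at 164 to 200 CPM against 135 to 161 CPM, without overlap. Of 13 genes that fold and crosslink collagen, 7 (53.8%) were lower in all 3, with Serpinh1, the collagen chaperone, at 23.5, 34.5 and 27.4 CPM against 13.3, 14.8 and 6.65 CPM. The summed level of the 13 genes overlapped, at 186 to 248 CPM in PA and 145 to 197 CPM in PA + PS2. For matrix made by neural cells the median was −0.19, but −0.34 without PA repeat 1, −0.051 without PA repeat 3 and −0.036 without PA + PS2 repeat 1. Bcan, brevican, was the 1 member of 11 lower in all 3 libraries, at 12.6 to 23.6 CPM against 5.34 to 7.63 CPM.

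Genes of the contractile cytoskeleton, many of them targets of the factor SRF, lay on the lower side. Of 22 members, 12 (54.5%) were lower in all 3 libraries, 11 were below all 6 others, and the median was −0.62. The summed level of the list was 1400, 1620 and 1230 CPM in PA and 1270, 1190 and 921 CPM in PA + PS2, so the sums overlapped. Acta2, smooth muscle actin, stood at 65.5, 63.5 and 53 CPM in PA and 19.4, 26.3 and 4.57 CPM in PA + PS2, where repeat 3 was far below the other two. Its log2 fold change was −1.85 ± 0.45. Cnn2, a calponin that binds actin, stood at 15.3, 16.2 and 12.5 CPM against 8.95, 7.79 and 5.99 CPM, a log2 fold change of −0.95 ± 0.19. Myh9, non-muscle myosin, stood at 100, 94.4 and 83 CPM against 66.6, 69.3 and 55.2 CPM, again without overlap. Srf itself and Cnn3 overlapped between groups at −0.10 and −0.05 in log2.

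Promoters of this list are shown because SRF binds a known motif, the CArG box. It was searched on both strands of the 250 bases before the start. A match was found for 4 of the 19 members with a RefSeq GRCm38.p6 promoter (21.1%), against 1.62% of 27025 genes. The windows below carry 12 bases on each side, with the match in capitals. They lie on the plus strand at chr10:79988532-79988565, chr2:156775291-156775324 and chr14:20929159-20929192.
Cnn2: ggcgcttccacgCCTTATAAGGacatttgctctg
Myl9: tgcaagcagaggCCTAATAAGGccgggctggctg
Vcl: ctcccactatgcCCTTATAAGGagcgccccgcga
Srf was the fourth gene. Cnn2 and Myl9, a myosin light chain, were lower in all 3 libraries, the latter at 7.87, 10.8 and 7.52 CPM in PA against 3.66, 3.97 and 1.41 CPM in PA + PS2. Vcl and Srf overlapped.

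Targets of YAP and TEAD, factors that respond to cell shape and stiffness, had a median of −0.32, with 7 of 16 (43.8%) lower in all 3 libraries. Without PA repeat 2 the median was −0.19. Axl, a receptor tyrosine kinase, stood at 5.4, 6.58 and 5.49 CPM in PA and 2.74, 2.43 and 1.75 CPM in PA + PS2, a log2 fold change of −1.34 ± 0.25. Ccn1, a secreted matricellular protein, stood at 12.6, 19.9 and 11.9 CPM against 9.91, 8.29 and 4.28 CPM. Ccn2, a close relative, stood at 7.96, 20.3 and 10.4 CPM against 5.29, 5.59 and 1.08 CPM. In all 3 genes the groups did not overlap. The TGF-beta list had a median of −0.25, with 3 of 14 tested members lower and 1 higher in all 3. From the insulin-like growth factor list, Igfbp2, Igfbp5, Igfbp7 and Igf2r were the 4 of 11 lower in all 3, with the binding protein Igfbp2 at 97.2, 107 and 82.5 CPM against 70.8, 66.7 and 65.2 CPM.

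Most tested genes of the cells that make such matrix lay on the same side, and their part in the matrix values was not tested. Of 17 genes of pericytes, fibroblasts and meninges, 11 were tested and 9 were below 0. The median was −0.95, or −0.43 without PA repeat 2 and −0.53 without PA + PS2 repeat 3. Of the 11, 3 (27.3%) were lower in all 3 libraries, beside 6.32% over all genes, and 1 (9.09%) was higher, beside 3.32%. The summed level of the list was 36.2, 57.8 and 36.9 CPM in PA repeats 1, 2 and 3, 25.2, 29.8 and 18.7 CPM in PA + PS2 and 33.2 to 54.3 CPM in control. Pdgfra (ENSMUSG00000029231, chr5:75152292-75198215), the receptor of fibroblasts and oligodendrocyte precursors, stood at 3.96, 5.57 and 3.01 CPM in PA and 0.77, 0.887 and 1.21 CPM in PA + PS2, a log2 fold change of −2.12 ± 0.39. Pdgfrb, the receptor of pericytes, stood at 5.71, 8 and 5.41 CPM against 2.5, 3.85 and 1.66 CPM, and Cspg4, a proteoglycan of pericytes and precursors, was lower in all 3 as well. Anpep, also a pericyte gene, was higher in all 3, at 0.135 to 0.293 CPM against 0.308 to 0.998 CPM. Slc6a13, Aldh1a2 and Dpt had at most 3 counts in any of the 6 libraries. Of 11 endothelial genes 5 were tested, the median was −0.033 (−0.45 to 0.062 with 1 library left out), and Kdr and Flt1, receptors for VEGF, were lower in all 3.

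Mitosis genes had a median of −0.98. All 18 members were tested and lay below 0, 15 (83.3%) were lower in all 3 libraries, and 9 were below all 6 others. Mki67 (ENSMUSG00000031004, chr7:135689784-135716361), the proliferation marker, stood at 38.1, 68.2 and 45.4 CPM in PA and 15.1, 22.1 and 22.9 CPM in PA + PS2, a log2 fold change of −1.34 ± 0.34 (edgeR adjusted p = 0.302). The controls stood at 25.2, 55.3 and 73.8 CPM, so control repeat 1 was nearer to PA + PS2 than to the other controls. Cdk1, the mitotic kinase, stood at 7.69, 11.4 and 9.36 CPM against 4.86, 4.47 and 3.24 CPM, and Aurkb, of the chromosomal passenger complex, at 6.39, 8.54 and 5.71 CPM against 2.55, 2.89 and 3.33 CPM. Bub1, Ccnb2 and Ttk overlapped between groups. The summed level of the list was 203, 322 and 253 CPM in PA, 106, 139 and 142 CPM in PA + PS2 and 152, 311 and 365 CPM in control. DNA replication genes had a median of −0.40 with 8 of 16 (50%) lower in all 3, among them the helicase subunit Mcm5 at 25.4, 20.8 and 20.7 CPM against 11.6, 11.6 and 15.6 CPM.

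Genes of neural progenitors and astrocytes lay on the same side. Of 15 progenitor genes tested, 8 (53.3%) were lower in all 3 libraries and the median was −0.59. Notch1 (ENSMUSG00000026923, chr2:26457903-26516663), the receptor that keeps progenitors undifferentiated, stood at 43.7, 46.3 and 36.5 CPM in PA and 14.6, 22 and 19.7 CPM in PA + PS2, a log2 fold change of −1.17 ± 0.25. Eomes, a factor of intermediate progenitors, stood at 9.67, 9.76 and 8.61 CPM against 3.9, 5.09 and 4.08 CPM, and Nes, nestin, was lower in all 3 as well. Sox2, a factor of progenitors and glia, overlapped at 45 to 51.8 CPM against 44.6 to 47.9 CPM. Of 17 astrocyte genes tested, 8 (47.1%) were lower in all 3, with a median of −0.48 (−0.26 without PA + PS2 repeat 1, −0.25 without the 3 libraries of repeat 1). Slc1a3, the glutamate transporter of astrocytes and radial glia, stood at 51.2, 59.5 and 62.7 CPM against 24.9, 32.7 and 36 CPM, and Gja1, the gap junction protein, at 10.2, 12.1 and 10.2 CPM against 5.68, 5.36 and 5.41 CPM. Both pairs of groups were apart. Gfap overlapped, at 2.22 to 2.64 CPM against 0.866 to 4.53 CPM.

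The control libraries did not place these glial and dividing-cell lists with PA in each repeat. The median level of astrocyte genes relative to PA was −0.68, −0.41 and −0.20 in PA + PS2 repeats 1, 2 and 3 and −0.75, −0.16 and −0.048 in the control repeats, on a log2 scale with 0.5 added to the CPM. For mitosis these medians were −1, −0.81 and −0.79 in PA + PS2 and −0.67, 0.34 and 0.37 in control. For both lists control repeat 1 was closer to PA + PS2 repeat 1 than to PA repeat 1, which stood at 0.052 and −0.28. For basement membrane genes all 3 control libraries stood above 0, at 0.076, 0.19 and 0.33, against −0.69, −0.65 and −1 in PA + PS2. The basement membrane list thus stood lower in PA + PS2 than in control in each repeat, and the astrocyte list did not.

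**Figure D5:**
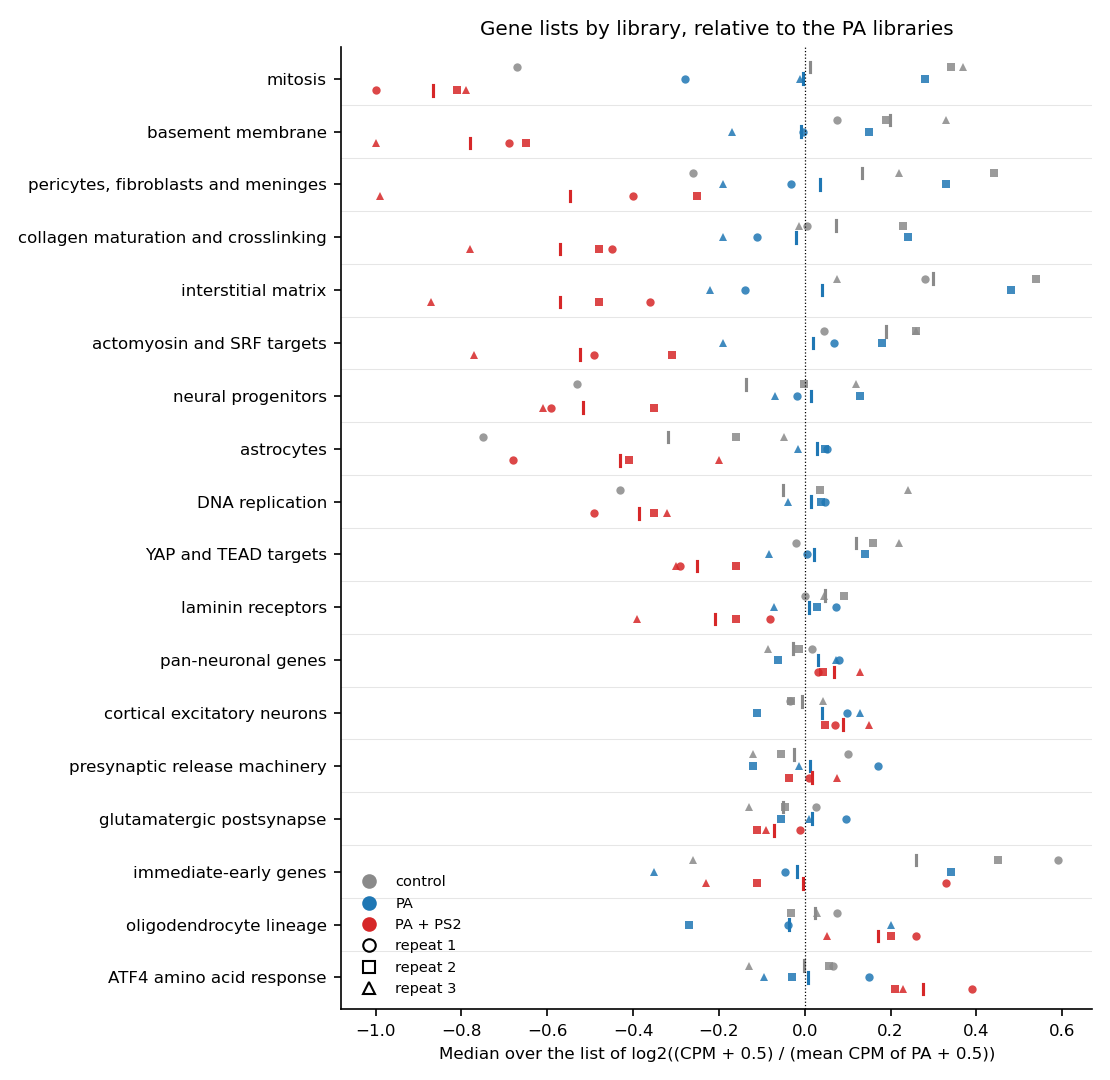
Median over each of 18 lists of the log2 level relative to the mean of the PA libraries, with 0.5 added to the CPM, shown as 1 point per library with colour for the group, marker shape for the repeat and a bar at the group mean. Mitosis, basement membrane and progenitor lists have the PA + PS2 points below the PA points, and the ATF4 list has its PA + PS2 points above them.

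Genes of oligodendrocyte precursors and of myelin lay on opposite sides of 0 or overlapped. Olig1 (ENSMUSG00000046160, chr16:91269772-91271933), a factor of precursors, stood at 7.69, 19.7 and 6.92 CPM in PA and 1.68, 2.77 and 2.12 CPM in PA + PS2, a log2 fold change of −2.37 ± 0.51. Its relative Olig2 stood at 5.94, 12.7 and 4.88 CPM against 2.02, 3.08 and 2 CPM. Both were below all 6 other libraries. Bcas1 and Myrf, which mark the step to myelinating cells, were higher in all 3 libraries, with Bcas1 at 1.57, 1.3 and 2.25 CPM against 3.22, 3.12 and 3.7 CPM. Mbp, a main protein of myelin, overlapped at a log2 fold change of 0.33 ± 0.22. Of the 13 tested members 10 lay above 0, and the median was 0.27, or 0.41 without PA repeat 3.

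Lists of neuronal identity genes had medians close to 0. The median log2 fold change was 0.04 for 12 pan-neuronal genes, 0.072 for 15 genes of cortical excitatory neurons and 0.12 for 15 genes of GABAergic neurons. None of these genes had an unadjusted p under 0.05, beside 5.61% over all genes. Groups were apart for Ina, a neurofilament protein, at 571 to 627 CPM in PA and 635 to 666 CPM in PA + PS2, and for Nefh, the heavy neurofilament, at 4.28 to 5.76 CPM against 3.66 to 3.93 CPM. Neurod6 of excitatory neurons stood at 329, 364 and 447 CPM in PA and 420, 441 and 450 CPM in PA + PS2. Reln, a secreted protein of early-born cells and interneurons, stood at 470, 557 and 438 CPM against 394, 458 and 381 CPM. Both overlapped, and their log2 fold changes were 0.20 ± 0.11 and −0.25 ± 0.12.

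Synaptic and excitability lists had medians between −0.1 and 0.02. In each but the GABA receptors, 1 to 3 members were lower in all 3 libraries, and the share over all genes was 6.32%. Sodium pump and chloride transport genes had the median of −0.1, with 8 of 11 below 0 and 3 (27.3%) lower in all 3. These were Slc12a5, the neuronal chloride exporter, at 90.8 to 111 CPM in PA and 80.7 to 90.5 CPM in PA + PS2, Slc8a1, a sodium-calcium exchanger, at 152 to 163 and 125 to 143 CPM, and Atp2b2, a calcium pump, at 263 to 301 and 254 to 256 CPM. Presynaptic release genes had a median of 0.0053. Bsn and Pclo, the giant scaffolds of the active zone, were the 2 of 18 (11.1%) lower in all 3 libraries, at 439 to 551 and 254 to 348 CPM in PA against 368 to 404 and 200 to 244 CPM in PA + PS2. Of 21 postsynaptic genes with a median of −0.068, 17 were below 0, and the summed level was 5130 to 5350 CPM in PA and 4770 to 4900 CPM in PA + PS2, without overlap. The controls summed to 4890 to 5170 CPM, so PA + PS2 repeat 1, at 4900 CPM, lay inside their range. Sums of the other lists in this paragraph overlapped between PA and PA + PS2. Of the 21 postsynaptic genes, 3 (14.3%) were lower in all 3, namely Camk2a, Shank1 and Grin2b. Camk2a, the kinase of synaptic plasticity, stood at 97.7, 86.3 and 85.5 CPM against 77.6, 72.7 and 72.6 CPM, a log2 fold change of −0.27 ± 0.10, and Shank1, a scaffold, at 727, 547 and 557 CPM against 533, 497 and 454 CPM. Of 21 voltage-gated channels with a median of −0.032, Cacna1d, an L-type calcium channel, was the 1 (4.76%) lower in all 3, at 49.9 to 52.7 CPM against 37.7 to 45 CPM. GABA receptors had a median of 0.02 and no member with groups apart.

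Genes induced by electrical activity overlapped between PA and PA + PS2. Immediate-early genes, which neurons transcribe soon after firing, had a median of 0.055, and none of 18 had groups apart. Fos stood at 11.7, 23.8 and 7.07 CPM in PA and 38.7, 15.2 and 12.3 CPM in PA + PS2, and Npas4 at 19.2, 44.1 and 11.3 CPM against 47.8, 17.1 and 12.4 CPM. Repeat 2 was highest within PA and repeat 1 within PA + PS2, and the controls stood at 48.5, 28 and 9.39 CPM for Fos. Delayed activity genes had a median of −0.018, again with none of 19 apart. The spread between repeats was wide: the log2 fold change of Fos was 0.64 ± 0.59 and that of Npas4 0.05 ± 0.66, so a difference in either direction was not detectable here.

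Housekeeping lists were near the median of all genes. Cytosolic ribosomal proteins had a median of 0.041, nuclear genes of oxidative phosphorylation 0.035, glycolysis and hypoxia genes −0.041 and cholesterol synthesis genes 0.089. Among inflammatory lists, NF-kB targets and chemokines had a median of −0.57 (0.13 with a filter of 1 CPM in 3 libraries, −0.25 without PA + PS2 repeat 1) with 5 of 9 lower and Tnfaip3, an inhibitor of NF-kB, higher in all 3. Csf1, the growth factor of macrophages, stood at 10.3, 10.1 and 6.43 CPM in PA and 3.7, 4.32 and 2.7 CPM in PA + PS2, a log2 fold change of −1.32 ± 0.31. Choroid plexus and ependyma genes had a median of 0.25, with Ttr, transthyretin, at 9.8, 1.51 and 7.44 CPM against 26.2, 10.6 and 21.9 CPM and in control at 14.4, 1.39 and 30.4 CPM. Ttr in PA + PS2 was above PA without overlap, and all 3 PA + PS2 libraries lay inside the control range. The median of that list ran from 0.067 without PA repeat 3 to 0.59 without PA + PS2 repeat 2, and stood at 0.14 without PA + PS2 repeat 1, 0.39 without PA repeat 2 and 0.037 with the filter of 1 CPM. Mt3, a metallothionein of brain, stood at 11.6, 17.7 and 9.96 CPM against 5.39, 6.36 and 5.82 CPM, without overlap.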

How the data were processed

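RNA sequencing of 9 libraries, 3 a group, was analysed from the deposited gene counts, which are whole numbers without normalization. Per the submitters' processing notes the tools were cutadapt 4.2, STAR 2.7.5, HTSeq 2.0.2 and DESeq2 1.14.1 with build mm10. Their roles and settings, the annotation, the filters and whether counting used strand are not given in the sources used here, so a gene and an overlapping or antisense gene cannot be told apart. The labels give polyadenylated RNA as the molecule beside a kit for total RNA. GENCODE M21 names were found for 54079 of 54232 identifiers.

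Genes were kept by filterByExpr (count of 10, total of 15), which left 15712 genes with 99.8% to 99.9% of the counts. Libraries held 20746851 to 27237398 counts and were scaled by the TMM method. The 3 groups shared 1 fit in edgeR 4.0.16 (with limma 3.58.1 in R 4.3.3), with 6 residual degrees of freedom and a common biological coefficient of variation of 16.6%. PA + PS2 was compared with PA by the quasi-likelihood test at a Benjamini-Hochberg adjusted p under 0.05, and the SE is the log2 fold change divided by the square root of F. On simulated counts for 15712 genes and this comparison, 58% of genes changed 2-fold and 90% of genes changed 4-fold were called, with 13 false calls among 161. Simulated libraries were drawn independently from the mean and fitted spread of each gene. The shares hold for that setting only. Alternatives were DESeq2 1.42.0, other scaling and filters, 6 libraries, a repeat term and libraries left out.

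The comparison and 46 lists of 711 symbols (652 tested) were chosen with earlier results of these data known. Lists are described by counts and medians. Genes named are the 8 protein-coding genes of smallest p in each direction at 1 CPM or more, members with the smallest p in each list (up to 4), laminin chains and receptors, and defining markers. Others named (such as Acta2, Fn1, Fos, Npas4, Nid1, the Col4a and Col18a1 chains, most enzymes and factors of the ATF4 list, Sox2, Gfap, Mbp, Srf, Vcl, Tubb3, Map2, Gad1 and those under other observations) were chosen after their values were seen. Promoters are from RefSeq GRCm38.p6. Some genes are not reported here.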

Additional observations from a re-analysis of the deposited data

How the results depend on the processing

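The count of genes that passed was 0 with DESeq2 size factors, with a filter of 1 CPM in 3 libraries and with only the 6 libraries of PA and PA + PS2. It was 121 with the DESeq2 test, 330 with no filter beyond 1 count and 3 without the 3 libraries of repeat 1. Leaving out single libraries gave 0 to 37 genes, with 37 without control repeat 1, 2 without PA + PS2 repeat 2 and 0 without each of the other 7. The cause was not tested. With the repeat number as a block, 57 genes passed over 9 libraries and 47 over 6, and 45 of the 57 were also DESeq2 calls. The labels do not say that a repeat number pairs samples. Deviations from the group means correlated at 0.015, 0.29 and 0.3 between PA and PA + PS2 libraries of the same number, and PA + PS2 repeat 1 correlated more with PA repeat 2 (0.14) than with PA repeat 1.

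Of 46 list medians, 31 kept their sign in all 17 settings, among them basement membrane (−1.1 to −0.83), mitosis (−1.1 to −0.84), actomyosin (−0.69 to −0.51) and the ATF4 list (0.25 to 0.39). Counts of groups that did not overlap were added as alternatives after seeing the data. Without single libraries these were 987 to 2339 genes lower and 548 to 2039 higher, and they rise by construction where fewer PA or PA + PS2 libraries must be separated. In basement membrane 12 to 15 members were lower, in mitosis 15 to 17, and in the ATF4 list 11 to 16 were higher.

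Of 142 genes named, 127 kept their sign in each setting. The other 15 had overlapping groups. Without single libraries the log2 fold change ranged from −0.177 to 0.184 for Tubb3, −0.131 to 0.0875 for Map2, −0.338 to 0.642 for Gfap, −0.741 to 0.774 for Npas4 and −0.0308 to 1.26 for Fos. It ranged from −0.136 to 0.0944 for Dag1, −0.0995 to 0.199 for Itga9, −0.22 to 0.0652 for Itga3, −0.408 to 0.287 for Lama3, −0.528 to 0.0684 for Lamb3 and −0.514 to 0.166 for Nid2. For Srf it ran from −0.162 to 0.0159, for Cnn3 −0.109 to 0.0135, for Trib3 −0.569 to 0.335 and for Atf3 −0.302 to 0.679. With the block over 9 libraries, Gfap stood at −0.0663, Npas4 at −0.0707 and Tubb3 at 0.0191, and Tubb3 at 0.0322 with the block over 6 libraries and 0.00148 over 6 libraries without it. Without the 3 libraries of repeat 1, Dag1 stood at 0.108, Fos at −0.158, Npas4 at −0.901 and Tubb3 at 0.206.

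With 3 libraries a group, the test called 58% of simulated 2-fold changes. The simulated libraries were drawn independently, without any spread shared between genes. In the real data 0 genes passed, although 495 had a log2 fold change under −1. The simulated share is therefore not an estimate of what the test finds in these libraries. Genes near 1 CPM rest on about 20.8 to 26.6 counts in a library, and intervals and floors cover counting error only.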

Other observations

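Whole gene families beside the lists above were described after their values were seen. Of 20 cytosolic aminoacyl-tRNA synthetases, which load amino acids onto transfer RNA, 19 had a log2 fold change above 0 and the median was 0.20. In all 3 PA + PS2 libraries 11 were higher, beside 3.32% over all genes. Nars, which loads asparagine, stood at 193, 187 and 190 CPM in PA repeats 1, 2 and 3 and 228, 233 and 251 CPM in PA + PS2, a log2 fold change of 0.32 ± 0.08. Iars, which loads isoleucine, stood at 114, 118 and 113 CPM against 141, 143 and 139 CPM, again without overlap. The 17 mitochondrial synthetases had a median of −0.04, with none higher and 1 lower in all 3. Of 21 amino acid transporters, 14 lay above 0 and the median was 0.13. Of the 21, 10 were higher in all 3, beside 3.32% over all genes, and 1 was lower, beside 6.32%. The lower gene was Slc38a3, a glutamine carrier, at −1.08 ± 0.32 in log2. Its PA + PS2 libraries, at 1.88 to 3.05 CPM, lay inside the control range of 1.44 to 3.5 CPM, with PA at 5 to 5.49 CPM. Slc7a5, Slc7a1, Slc3a2 and other transporters of the report are among the 21.

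Of 9 tested genes for YAP, TAZ, the TEAD factors, their Vgll partners and the Lats kinases, 8 lay below 0 and the median was −0.39. In all 3 libraries 6 were lower, beside 6.32% over all genes. Yap1 stood at 5.85, 8.17 and 6.24 CPM in PA and 2.36, 2.97 and 2.62 CPM in PA + PS2, a log2 fold change of −1.34 ± 0.28, and Tead2 of the report is 1 of the 6. Bc1, a short non-coding RNA of neurons, stood at 3.96, 2.6 and 3.5 CPM against 8.08, 7.17 and 8.52 CPM. Marco, a scavenger receptor of macrophages, stood at 1.26, 1.22 and 1.24 CPM against 2.26, 1.81 and 3.41 CPM, and Mmp12, a macrophage elastase, at 0.045, 0.251 and 0.113 CPM against 1.88, 0.463 and 1.08 CPM. In each of these 3 genes the PA + PS2 libraries lay above the PA libraries. Mmp12 in PA repeats 1 and 3 was at or below the 0.135 and 0.113 CPM that a count of 0 allows there. Marco and Mmp12 were picked after their values were seen, while the list of microglia and macrophages had a median log2 fold change of 0.027.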
